A study of Rattus norvegicus with 20 samples.

Results

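The translation initiation and elongation factors of the rat medial prefrontal cortex (mPFC) were examined after chronic LSD treatment and, by the labels, 3 weeks without the drug. Members were all genes whose symbol begins with Eif1 to Eif6, Eef1 or Eef2 and that reached 5 reads in 10 or more of the 20 libraries. All 64 matching symbols of the 31038 listed passed this filter, and so did 16605 genes in all. The members nearest the filter were Eif4e1b, with 6 to 24 reads per rat, and Eef2kmt, with 7 to 33. The rats were male Sprague-Dawley animals that the labels give as 6 to 8 weeks old at the first injection; the methods of the study give a somewhat later collection and a higher starting age. Of these, 10 were given LSD, a serotonergic psychedelic, at 0.16 mg/kg intraperitoneally on alternate days over 90 days, and 10 controls were given sterile saline on the same schedule. Each rat contributed 1 poly(A)-selected library, and the labels do not say in what order or how the rats were processed, so that p-values measure the spread between these libraries. The comparison of LSD-treated rats with controls asks what is still altered in this tissue after the drug has been stopped.

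Translation of an mRNA begins when eIF2 carries the initiator tRNA to the small ribosomal subunit, which eIF3 holds together with the other factors, and when eIF4E, eIF4G and eIF4A bind the cap of the mRNA and unwind its leader. eIF5, eIF5B and eIF2B then release, join and recycle the parts of this machine, while eEF1 and eEF2 deliver the next aminoacyl-tRNA and move the ribosome along. Kinases of eIF2 alpha and of eEF2, and the eIF4E-binding proteins, slow these steps down, and in neurons such control is known for its part in synaptic plasticity and the response to stress. In what follows, a level is a normalised RPM, the reads of a gene as RPM with the library sizes scaled by TMM, and a difference is a log2 fold change, LSD minus saline. A factor was called when its p in the quasi-likelihood F test of edgeR, adjusted by Benjamini and Hochberg's method over all 16605 genes, was under 0.05. Levels were not compared between genes, since they are not corrected for transcript length.

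The LSD-treated rats had 16346629 to 25552681 reads on genes and the controls 11098076 to 24201351, so that the LSD libraries were the deeper ones on the whole. Markers of cortical excitatory neurons were abundant in every library, with summed levels of 3197 to 4236 in LSD-treated rats and 3299 to 4925 in controls. The summed level of 4 striatal markers (Drd1, Drd2, Adora2a, Ppp1r1b), none of which was called, ran from 122.8 to 306.8 in LSD-treated rats and from 140.3 to 427.6 in controls. Saline 8, Saline 9, Saline 2 and LSD 9 were the 4 highest, and oligodendrocyte markers were highest in the same 4 libraries, with group medians of 3510 in LSD-treated rats and 4350 in controls and 0 of 5 genes called. Among the inhibitory neuron markers Gad2 was called higher and Slc32a1 and Sst lower, and of the blood genes Hbb was called lower. In bulk tissue, a lower level of an mRNA cannot be told apart from a smaller share of the cells that hold it.

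Of the 64 factors, 1 was higher in LSD-treated rats, 15 were lower and 48 were not called. Across all genes tested, 6.48% were called higher and 8.54% lower, against 1.56% and 23.4% of the factors. When the libraries were scaled by total counts alone, the part of all calls that were lower moved from 56.9% to 36.4%, and 9.04% of all genes were higher and 5.17% lower. Under that scaling 3 of the 64 factors were higher and 7 lower. The called factors were spread over 9 of the 12 classes, since the eIF1 group, the eIF2 alpha kinases and the elongation factor methyltransferases had none while the eIF3 class had 5. Differences were small, from -0.35 for Eif4ebp1 to 0.29 for Eif3a among the called factors. The median over all 64 factors was 0.0092, beside 0.0022 over all genes, since 34 factors had a positive and 30 a negative difference. At an unadjusted p of 0.05, 24 of the 64 factors passed, beside 5111 of all 16605 genes. In 13 of the 15 lower factors, every LSD-treated rat lay below the median of the controls, while the ranges of the groups overlapped for every called factor. The factors were picked by the same rats, so that these counts describe the calls and add no support to them. No such count over all genes is given beside them. Of the 52 genes of initiation 1 was higher and 11 were lower, and of the 12 genes of elongation, eIF5A included, 0 were higher and 4 lower.

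**Figure D1:**
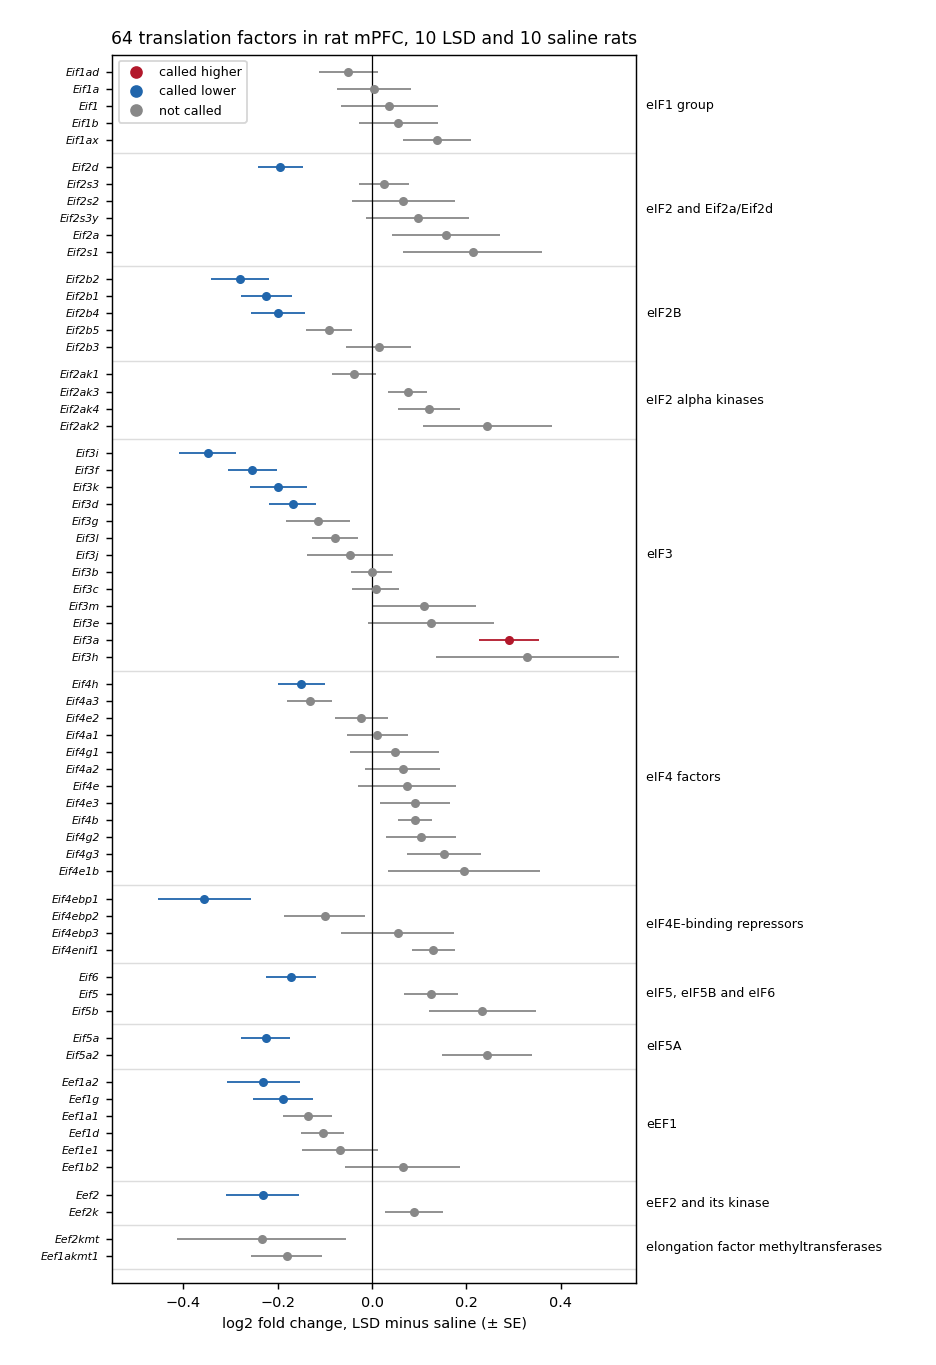
Log2 fold change (LSD minus saline, ± SE) on the x axis for each of the 64 factors, by class on the y axis, from 10 LSD-treated rats and 10 controls; red marks the factor called higher, blue the 15 called lower and grey the 48 not called. On the left lie 3 of 5 eIF2B subunits and 4 of 13 eIF3 subunits, and Eif3a is the red point on the right.

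The largest share of lower calls in a class of more than 2 genes was in eIF2B, the exchange factor that reloads eIF2 with GTP, where 3 of 5 subunits fell. Eif2b2, the beta subunit, had levels of 45.8 to 57.2 (median 51.0) in LSD-treated rats and 51.6 to 72.0 (median 63.1) in controls. It fell by 17.6% (log2 difference -0.28, SE 0.061, edgeR adjusted p = 0.00755), and 7 of the 10 LSD-treated rats were below the lowest control. Eif2b1, the alpha subunit, ranged from 17.1 to 20.8 (median 18.6) in LSD-treated rats and from 19.7 to 25.6 (median 22.1) in controls. Its difference was -0.22 (SE 0.054, edgeR adjusted p = 0.0108), again with 7 LSD-treated rats under every control. Eif2b4, the delta subunit, lay between 23.9 and 29.9 (median 27.2) after LSD and between 26.8 and 38.3 (median 30.8) after saline, a difference of -0.20 (SE 0.057, edgeR adjusted p = 0.0235). Together, Eif2b1, Eif2b2 and Eif2b4 make up the regulatory part of the complex. The subunits of its catalytic part were not called: Eif2b5, the epsilon subunit that carries the exchange activity, differed by -0.09 (SE 0.049, edgeR adjusted p = 0.214) and Eif2b3, the gamma subunit, by 0.01 (SE 0.069). Whether the regulatory and the catalytic subunits differed from each other was not tested.

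The subunits of eIF2 itself, the substrate of eIF2B, were not called. Eif2s1, the alpha subunit of eIF2 that the stress kinases phosphorylate, had levels of 9.68 to 19.5 (median 14.2) in LSD-treated rats and 7.58 to 18.7 (median 11.7) in controls, and its difference of 0.21 (SE 0.147) was not called (edgeR adjusted p = 0.344). Eif2s2, Eif2s3 and Eif2s3y, the remaining eIF2 subunits, differed by 0.07, 0.03 and 0.10 and were not called. The called gene of this class was Eif2d, an initiation factor that can deliver tRNA to the ribosome without eIF2. Its levels were 12.9 to 15.2 (median 14.3) in LSD-treated rats and 14.9 to 17.1 (median 16.7) in controls, so that 9 of 10 LSD-treated rats were below the lowest control. It fell by 12.6% (log2 difference -0.19, SE 0.047, edgeR adjusted p = 0.0115). None of the 4 eIF2 alpha kinases was called: Eif2ak1 (HRI) differed by -0.04, Eif2ak2 (PKR) by 0.24, Eif2ak3 (PERK) by 0.08 and Eif2ak4 (GCN2) by 0.12. All 10 LSD-treated rats were above the control median for Eif2ak2, where the controls ran from 6.07 to 14.8 (median 8.17) and the LSD-treated rats from 8.22 to 12.8 (median 10.3). For Eif2ak3 the 10 LSD-treated rats were likewise above the control median, at 28.5 to 31.5 against 25.8 to 31.1. With log2 reads on genes as a covariate, Eif2ak1 differed by -0.05, Eif2ak2 by -0.08 and Eif2ak3 by 0.05. Eif2ak4 then differed by 0.22 (edgeR adjusted p = 0.0531), and none of the 4 was called.

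eIF3, the scaffold of the initiation complex, changed in both directions. Eif3i, a WD-repeat subunit of its peripheral module, had the lowest adjusted p of all 64 factors. Its levels were 41.0 to 52.7 (median 46.3) in LSD-treated rats and 52.6 to 70.8 (median 58.3) in controls. Only LSD 10, the highest of its group, reached the lowest control, Saline 10, and the difference was -0.35 (SE 0.061, edgeR adjusted p = 0.00357), a drop of 21.5%. Eif3f, an MPN-domain subunit of the core octamer, ran from 180.4 to 211 (median 187.2) in LSD-treated rats and from 202.3 to 269.7 (median 223.2) in controls, with all LSD-treated rats but LSD 1 below the lowest control. It fell by 16.1% (log2 difference -0.25, SE 0.052, edgeR adjusted p = 0.00642). Eif3k, a small octamer subunit, lay at 92.3 to 114.2 (median 102.8) after LSD and at 100.6 to 144.5 (median 116.5) after saline (log2 difference -0.20, SE 0.060, edgeR adjusted p = 0.0296). Eif3d, the subunit known to bind the cap of some mRNAs, lay at 63.3 to 76.5 (median 71.0) and 70.1 to 88.3 (median 77.7), a difference of -0.17 (SE 0.049, edgeR adjusted p = 0.0261). All 10 LSD-treated rats were below the control median for both, with overlapping ranges.

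Eif3a, the largest eIF3 subunit and the backbone of the octamer, was the single factor called higher. Its levels were 110.1 to 147.8 (median 128.6) in LSD-treated rats and 92.0 to 124.8 (median 102) in controls. The highest control, Saline 2, was exceeded by 8 of the 10 LSD-treated rats, and the level rose by 22.2% (log2 difference 0.29, SE 0.063, edgeR adjusted p = 0.00757). The remaining 8 eIF3 subunits were not called, with differences from -0.11 for Eif3g to 0.33 for Eif3h. Eif3b, the subunit that anchors Eif3i and Eif3g, was not called. It ranged from 96.9 to 110.7 (median 105.4) in LSD-treated rats and from 97.2 to 118.3 (median 102.6) in controls, a difference of -0.0006 (SE 0.044, edgeR adjusted p = 0.994). Among the 8 subunits of the octamer 1 was higher and 2 were lower, in the module of Eif3b, Eif3g and Eif3i 1 of 3 was lower, and of the peripheral Eif3d and Eif3j 1 was lower. Eif3k lost its call when any single one of LSD 2, LSD 3, LSD 4, Saline 4, Saline 5 or Saline 9 was left out (adjusted p up to 0.0576) and with the replicate number as a block (adjusted p = 0.0513), and Eif3d lost it without LSD 4 or Saline 5 (adjusted p up to 0.0516).

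**Figure D2:**
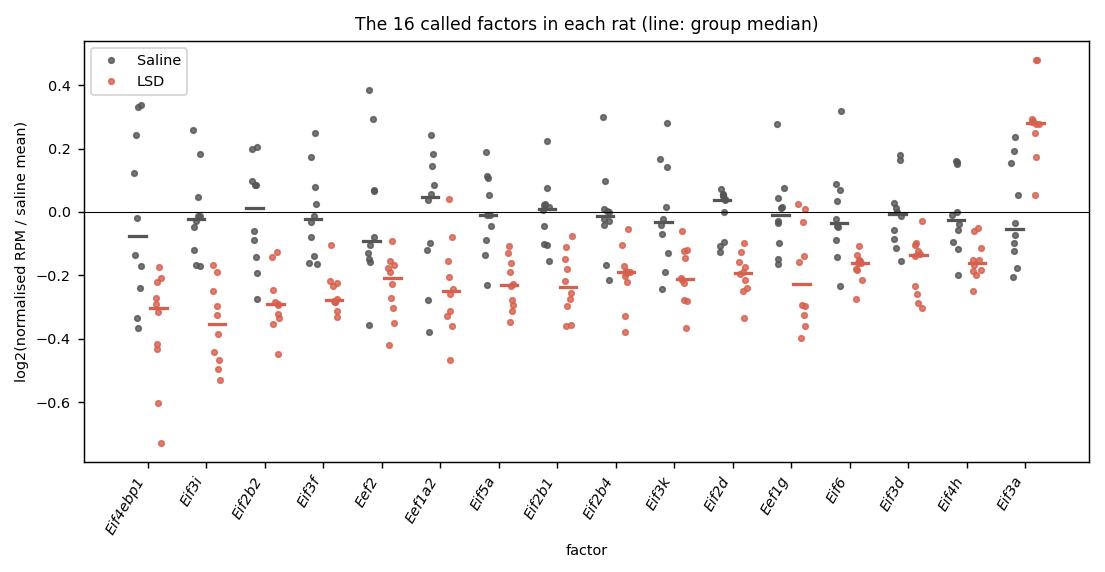
Log2 of each rat's normalised RPM over the mean of the controls on the y axis for the 16 called factors on the x axis; each point is 1 rat (grey saline, red LSD, 10 each) and each line the median of its group. For Eif3i, Eif3f and Eif2d, 9 of the 10 LSD-treated rats lie below the lowest control, while for Eef2 and Eif6 only 1 does.

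Start-site windows were compared because the called eIF3 and eIF2B genes encode subunits of shared complexes. RefSeq windows of the GRCr8 assembly, 250 bases before to 50 after a start, were matched for 58 of the 64 factors (61 windows); Eef1d, Eif3e, Eif3h, Eif4b, Eif4e3 and Eif4ebp1 were not matched. The letters CCGGAAG, which hold the core recognised by ETS factors, were searched on both strands. They occurred in 37.7% of the factors' windows and in 8.75% of all 33469 windows of the same length. Among windows of factors called lower, 7 of 14 held them (Eif2b1, Eif2b2, Eif2d, Eif3d, Eif3i, Eif3k and Eif6), and 16 of 46 windows of factors not called did. The E-box CACGTG was in 11 of the 61 windows of factors and 6.42% of all, the letters AAGATGG in 11.5% and 7.01%, and the letters TATAAA in 4.92% and 14.2%. Such a match describes the letters and is not a binding site, and CCGGAAG was common in factors whether or not they were called. The 100 bases from 80 before to 20 after the start, written in the direction of the gene, are shown for Eif3i, the lowest adjusted p, with 3 matches; for Eif2b2 and Eif3k, with 1 each; and for Eif3f and Eif3a, called in opposite directions, with none in this stretch. Capitals mark CCGGAAG or its reverse complement.
Eif3i (chr5:147226891-147226990, minus strand): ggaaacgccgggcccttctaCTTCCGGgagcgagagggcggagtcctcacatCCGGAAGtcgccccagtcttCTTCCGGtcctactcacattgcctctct
Eif2b2 (chr6:110597899-110597998, plus strand): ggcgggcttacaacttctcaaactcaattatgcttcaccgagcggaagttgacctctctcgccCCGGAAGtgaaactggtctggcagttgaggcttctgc
Eif3k (chr1:93397468-93397567, minus strand): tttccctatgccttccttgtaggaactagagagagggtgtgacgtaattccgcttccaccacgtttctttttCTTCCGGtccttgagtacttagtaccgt
Eif3f (chr1:172368982-172369081, plus strand): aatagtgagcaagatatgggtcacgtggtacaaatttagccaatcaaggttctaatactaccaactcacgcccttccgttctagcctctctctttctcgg
Eif3a (chr1:269919006-269919105, minus strand): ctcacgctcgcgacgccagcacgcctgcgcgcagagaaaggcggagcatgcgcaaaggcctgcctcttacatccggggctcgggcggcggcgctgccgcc

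In the cap-binding and scanning machinery, 1 of 12 factors fell. This was Eif4h, which stimulates the helicase eIF4A, with 422.1 to 484.6 (median 448.9) in LSD-treated rats and 436.9 to 560.9 (median 493.5) in controls. Its difference of -0.15 (SE 0.050, edgeR adjusted p = 0.0434) held in only 7 of the 20 fits that each left out 1 rat. Those that ended the call left out LSD 2, 3, 4, 6, 7, 8, 9 or 10 or Saline 1, 3, 4, 5 or 9, with adjusted p up to 0.0869. Eif4e, the cap-binding protein itself, ranged from 27.3 to 40.9 (median 32.7) in LSD-treated rats and from 21.7 to 42.6 (median 31.2) in controls and differed by 0.07 (SE 0.103, edgeR adjusted p = 0.671). The helicases Eif4a1 and Eif4a2 differed by 0.01 and 0.06, and the scaffolds Eif4g1, Eif4g2 and Eif4g3 by 0.05, 0.10 and 0.15, none of them called. Among the repressors that hold eIF4E away from its scaffold, Eif4ebp1, the best known target of mTORC1 in this family, fell by 21.8%. Its levels were 7.42 to 10.9 (median 9.95) in LSD-treated rats and 9.53 to 15.5 (median 11.7) in controls (log2 difference -0.35, SE 0.099, edgeR adjusted p = 0.0205). In the LSD group, 4 rats were below every control and all 10 below the control median. Eif4ebp2, the form most abundant in brain, was not called, at -0.10 (SE 0.086, edgeR adjusted p = 0.462).

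Of the late initiation factors, Eif6, which keeps the large ribosomal subunit from joining too early, fell by 11.2%. It ranged from 74.9 to 84.0 (median 81.0) in LSD-treated rats and from 77.0 to 112.8 (median 88.4) in controls (log2 difference -0.17, SE 0.053, edgeR adjusted p = 0.0315). This call was lost without LSD 2, LSD 4, Saline 1, Saline 4 or Saline 5 (adjusted p up to 0.0563). Eif5, which triggers GTP hydrolysis by eIF2, and Eif5b, which joins the subunits, were not called, at 0.12 (SE 0.057) and 0.23 (SE 0.113). All 10 LSD-treated rats were above the control median for each, but with log2 reads on genes as a covariate they differed by 0.0004 and -0.05. Eif5 lay at 56.7 to 66.5 (median 61.7) after LSD and 45.4 to 67.5 (median 56.2) after saline, with Saline 2 the highest of all 20 rats.

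Elongation genes were lower or not called. Eef2, the translocase, had levels of 1762 to 2212 (median 2038) in LSD-treated rats and 1841 to 3077 (median 2210) in controls, a difference of -0.23 (SE 0.077, edgeR adjusted p = 0.0444). Eef1a2, the form of the tRNA-delivering factor used by mature neurons and muscle, lay at 1238 to 1761 (median 1440) and 1318 to 2026 (median 1770), a difference of -0.23 (SE 0.077, edgeR adjusted p = 0.0453). For each of these, a single LSD-treated rat was below the lowest control, Saline 2. Eef1g, a structural subunit of the eEF1 exchange complex, lay at 133.8 to 179.4 (median 150.8) and 157.2 to 213.4 (median 175.2) with 5 LSD-treated rats below every control and 2 above the control median (log2 difference -0.19, SE 0.064, edgeR adjusted p = 0.0491). With Eif4h, these were the 4 calls nearest the threshold. Eef2 was no longer called without LSD 2, 3, 4, 5, 7, 8, 9 or 10 or Saline 1, 3, 4, 5 or 7 (adjusted p up to 0.0961). Eef1a2 was no longer called without LSD 2, 3, 4, 6, 7, 8, 9 or 10 or Saline 1, 3, 4, 5, 6 or 9 (adjusted p up to 0.0933). Eef1g was no longer called without LSD 2, 3, 4, 5, 6 or 8 or Saline 1, 2, 4, 5, 6, 9 or 10 (adjusted p up to 0.0909). With 1 surrogate variable as a covariate, Eef2 differed by -0.14 (edgeR adjusted p = 0.0822) and Eef1a2 by -0.14 (edgeR adjusted p = 0.0629), and neither was called. Eef1a1, the widely expressed counterpart of Eef1a2, differed by -0.14 (SE 0.052, edgeR adjusted p = 0.0737), and its value is uncertain because it has many processed copies that can take its reads. Eef2k, the kinase that inhibits eEF2, differed by 0.09 (SE 0.061, edgeR adjusted p = 0.337), and the methyltransferase genes Eef1akmt1 and Eef2kmt by -0.18 and -0.23 without a call.

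eIF5A, which carries the modified lysine hypusine and helps ribosomes through difficult peptide bonds, showed a change within the family. Eif5a ranged from 173 to 204.1 (median 187.4) in LSD-treated rats and from 187.7 to 251 (median 218.6) in controls and fell by 14.5% (log2 difference -0.23, SE 0.051, edgeR adjusted p = 0.00854). Its paralog Eif5a2 lay at 50.2 to 71.2 (median 61.5) and 36.9 to 74.8 (median 53.2), a difference of 0.24 that was not called (SE 0.096, edgeR adjusted p = 0.0858). The log2 ratio of Eif5a2 to Eif5a reads within a rat, which does not depend on how libraries are scaled, ran from -1.83 to -1.40 in LSD-treated rats (mean -1.63 ± 0.142, SD, n = 10) and from -2.69 to -1.51 in controls (mean -2.11 ± 0.354, SD, n = 10). The difference was 0.49 (SE 0.121), with all 10 LSD-treated rats above the control median. It was the only one of 9 paralog ratios examined that passed an exact two-sided permutation test over all 184756 splits of the rats (p = 0.000671, adjusted over the 9 pairs 0.0060). With the rats paired by number, an exact sign-flip test gave an adjusted p of 0.0703. The ratio moved with depth, by 0.72 per doubling of the reads, and the difference at equal library size was 0.26 (SE 0.103), a value chosen after seeing the data and given without a test. The other pairs, among them Eef1a2 to Eef1a1 (-0.09), Eif4a2 to Eif4a1 (0.06) and Eif4ebp2 to Eif4ebp1 (0.25, exact permutation p = 0.0600, adjusted 0.270), did not pass.

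**Figure D3:**
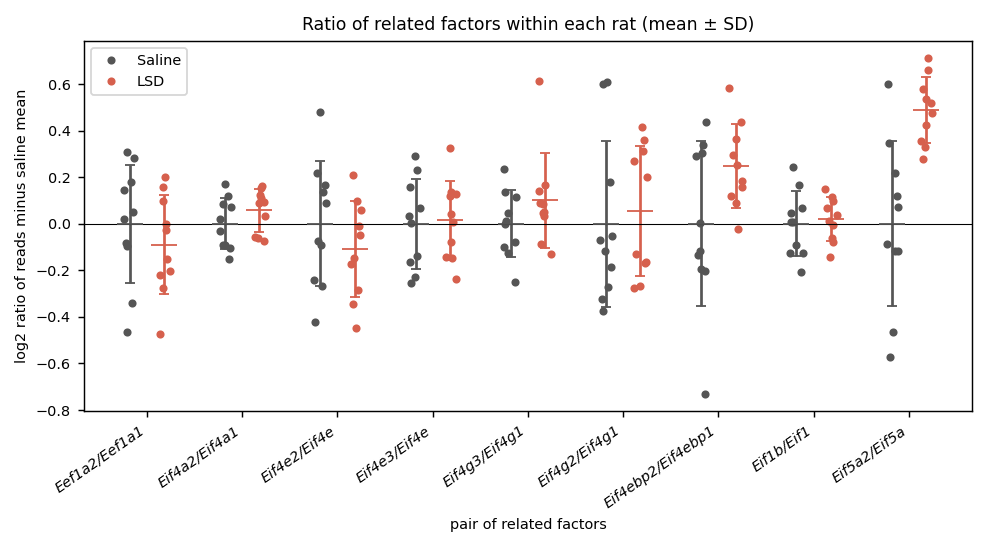
Log2 ratio of the reads of 2 related factors, less the mean of the controls, on the y axis for 9 pairs on the x axis; each point is 1 rat (grey saline, red LSD, 10 each) and bars are mean ± SD. For Eif5a2/Eif5a all 10 LSD-treated rats lie above the control median, with a mean difference of 0.49, and 2 controls reach into their range.

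Genes that act with these factors were described from a separate list of 48 release, poly(A)-binding, modification and mitochondrial factors, of which 46 were tested (Gspt1 and Ddx3y were not). Of these, 3 were higher (6.52%) and 7 lower (15.2%), beside 6.48% and 8.54% of all genes. Larp4, which binds and stabilises poly(A) tails, had a difference of 0.40 (SE 0.090, edgeR adjusted p = 0.00854), Ppp1r15b, the constitutive partner of the eIF2 alpha phosphatase, 0.29 (SE 0.065, edgeR adjusted p = 0.00807), and Ddx3x, a helicase used in scanning, 0.28 (SE 0.094, edgeR adjusted p = 0.0453). Ppp1r15b averaged 44.8 ± 4.78 (SD, n = 10) after LSD and 36.7 ± 3.11 (SD, n = 10) after saline. The lower genes included Dohh, the enzyme that completes hypusine on eIF5A, at -0.36 (SE 0.095, edgeR adjusted p = 0.0174) and Dph3, needed for the diphthamide of eEF2, at -0.25 (SE 0.059, edgeR adjusted p = 0.0102). Pelo, which rescues stalled ribosomes, was lower by edgeR at -0.33 (SE 0.075, adjusted p = 0.00888), as was Tufm, the mitochondrial counterpart of eEF1A, at -0.23 (SE 0.052, adjusted p = 0.00807), and the fifth by p was Eefsec, the elongation factor for selenocysteine, at -0.19 (SE 0.051, adjusted p = 0.0189). Ddx3x lost its call in 13 of the 20 fits that each left out 1 rat, those without LSD 2, 3, 4, 7, 8, 9 or 10 or Saline 1, 3, 4, 5, 6 or 9 (adjusted p up to 0.0818). With the depth of the library as a covariate, 2 of the 10 called partners kept their call, Dph3 (-0.24, edgeR adjusted p = 0.0389) and Paip2 (-0.27, edgeR adjusted p = 0.0308), a repressor of the poly(A)-binding protein. Ddx3x then differed by 0.05, Dohh by -0.14, Pelo by -0.19 and Tufm by -0.15, with edgeR adjusted p of 0.613, 0.261, 0.0917 and 0.0715.

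The differences of the factors followed the genomic span of their genes, the distance between start and end in the annotation, a pattern shared with all genes. Spearman's rho between log2 difference and span was 0.36 across all genes with a span and 0.56 across the 64 factors, a description over genes that share the same 20 libraries. The median span was 16952 bases for the factors, 9179 for those called lower and 24514 for all genes. In the shortest tertile of span, 13 of 29 factors were lower (44.8%), beside 17.2% of all genes in it, and in the middle tertile 2 of 26 (7.69%), beside 7.62%. None of the 9 factors of the longest tertile was lower, beside 2.83% of its genes. With offsets for each rat's dependence on span, after which rho across all genes was 0.05, 3.4% of all genes were higher and 6.79% lower, and among the factors Eif3a was higher and 7 were lower. The 7 were Eif2b1, Eif2b2, Eif2d, Eif3f, Eif3i, Eif4ebp1 and Eif5a, while 8 calls ended. Their differences moved from -0.20 to -0.13 for Eif2b4 (edgeR adjusted p = 0.106), from -0.17 to -0.10 for Eif6 (0.137), from -0.17 to -0.13 for Eif3d (0.0594), from -0.20 to -0.15 for Eif3k (0.0714), from -0.15 to -0.13 for Eif4h (0.0767), from -0.23 to -0.18 for Eef1a2 (0.114), from -0.19 to -0.14 for Eef1g (0.126) and from -0.23 to -0.20 for Eef2 (0.0892). All 8 kept their sign.

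**Figure D4:**
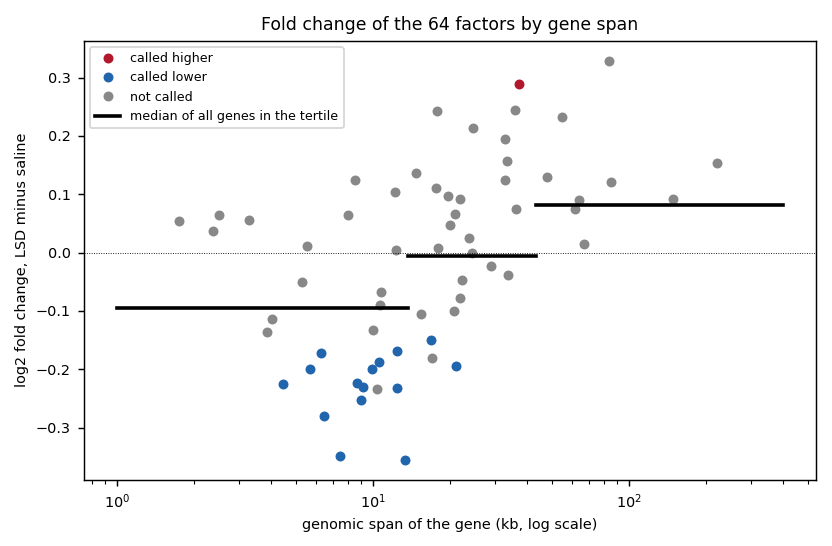
Log2 fold change (LSD minus saline) of the 64 factors on the y axis against the genomic span of the gene on a log x axis in kilobases; colours give the call and black lines the median of all genes in each tertile of span. Of the 15 lower factors, 13 are in the shortest tertile, where the median of all genes is -0.09.

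Within each group many factors varied along a shared axis from rat to rat, though pairs of factors were on the whole only weakly related. The median Pearson's r over all pairs, with group means removed, was 0.19 over the 20 rats, 0.36 within eIF3 and 0.0038 within the eIF4 factors. After the mean of each group was removed, the first component of the 64 factors held 57.5% of their variance over the 20 rats, where that of all genes held 27.6% of theirs. Over the rats, the absolute r between both components was 0.943. Of the factors, 23 had r over 0.7 with the component, among them Eif3m, Eif2s2, Eef1b2, Eif1, Eif4a2, Eif4e and Eif2s1, and 3 were under -0.7, namely Eef2 (-0.83), Eif4g3 (-0.77) and Eif4ebp2 (-0.70). Most called factors were nearer 0, with Eif3i at 0.32, Eif2b2 at -0.36 and Eif5a at 0.07. Farther from 0 were Eef1g at 0.70, Eef1a2 at -0.67 and Eif3a, the factor called higher, at 0.53. Saline 2 (2.31) and Saline 9 (1.78) had the highest scores and Saline 4 (-1.52) the lowest, and the LSD-treated rats lay between -0.95 and 1.11.

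The component of the factors moved with the depth of the library. Pearson's r between its score and log2 reads on genes, both with group means removed, was 0.868 over the 20 rats (Spearman's rho 0.926), and r was 0.898 without Saline 5 and Saline 2, the rats farthest from the median depth. Within LSD-treated rats r was 0.948 and within controls 0.831. It was 0.486 with the summed striatal markers and 0.504 with the oligodendrocyte markers. These correlations are descriptions over the same libraries, given without a p, and the part of depth or tissue composition in the component was not tested. Without the 4 libraries richest in striatal markers the first component held 51.2% of the variance and its absolute r with depth was 0.827.

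**Figure D5:**
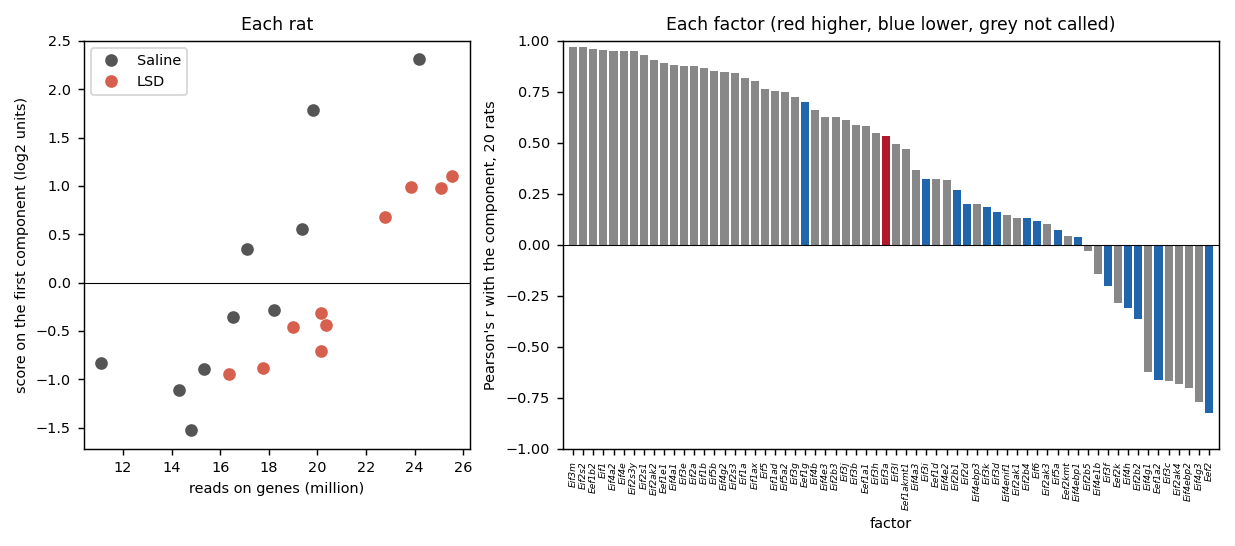
Left, the score of each rat on the first component of the 64 factors (group means removed, log2 units) on the y axis against its reads on genes on the x axis, grey saline and red LSD. Right, Pearson's r over the 20 rats of each factor with that component, from Eif3m at the upper end to Eef2 at -0.83, with bars coloured by call; most blue bars are short.

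Because of this relation the comparison was repeated with log2 reads on genes as a covariate, an alternative chosen after seeing the data. Across all genes 3.22% were then higher and 3.85% lower. Of the 16 called factors, 6 kept their call and 10 lost it. The calls kept, with log2 difference and edgeR adjusted p, were those of Eif3i (-0.35, 0.0213), Eef1g (-0.28, 0.0281), Eif2b1 (-0.22, 0.0370), Eif2d (-0.21, 0.0317), Eif3f (-0.20, 0.0381) and Eif5a (-0.20, 0.0392). Eif3a differed by 0.17 and was not called (edgeR adjusted p = 0.0653), while Eef2 and Eef1a2 each differed by -0.07 and Eif2b2 by -0.18 (edgeR adjusted p = 0.0624). Eef1a1 was called lower here (-0.18, edgeR adjusted p = 0.0463) and Eif4g3 higher (0.28, edgeR adjusted p = 0.0405). Depth and group partly go together in these libraries, so that their shares in the 10 lost calls cannot be told apart. With the reads of each rat drawn down to 11098076, which leaves the composition of a library as it is, 1 factor was higher and 12 lower, beside 6.2% and 7.94% of all genes.

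More factors were called higher without the 4 libraries richest in striatal markers, Saline 8, Saline 9, Saline 2 and LSD 9, an alternative also chosen after seeing the data. Across all genes 10.2% were then higher and 10.1% lower, and 8 factors were higher and 14 lower, with 15 of the 16 calls kept and that of Eif4h lost. The added higher factors, with log2 difference and edgeR adjusted p, were Eif2ak2 (0.43, 0.0261), Eif3h (0.52, 0.0279), Eif3m (0.27, 0.0451), Eif4b (0.11, 0.0322), Eif5 (0.19, 0.0197), Eif5a2 (0.32, 0.0220) and Eif5b (0.38, 0.0210). With all rats kept and depth as a covariate, none of these was called. In the same order they then differed by -0.08, 0.11, -0.16, 0.05, 0.0004, 0.04 and -0.05. The 4 libraries left out were also deeper than the median of their group. Saline 2, Saline 9 and Saline 8 had 24201351, 19805283 and 18216632 reads on genes (control median 1.68154e+07). LSD 9 had 22770382 (LSD median 2.02711e+07). The part of depth in the added calls was not tested. Leaving out Saline 2 alone gave 8 higher factors as well, with Eif1ax and Eif4enif1 in place of Eif3h and Eif3m, beside 1681 of all 16605 genes. The spread of the factors depended on the same libraries. Over all rats, 59 of the 64 factors (92.2%) had a smaller SD of log2(RPM + 1) in LSD-treated rats than in controls, beside 76.7% of all genes, while without the 4 libraries it was 33 factors (51.6%), beside 57.1% of all genes.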

How the data were processed

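Poly(A)-selected RNA of the mPFC of 20 rats, 1 library per rat, was sequenced, and groups were taken from the sample labels. The authors aligned the reads to rn6 with HISAT2, counted them per gene with HTSeq and deposited raw counts without normalisation. Versions, gene annotation and strand setting are not given in the sources used here, so that reads of overlapping or antisense genes and of near-identical copies may be shared. The table ends with 5 entries without a name, holding 25.5% to 29.0% of the reads of a library, which were left out. All sample columns were used.

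The 16605 genes that reached 5 reads in 10 or more libraries were tested with edgeR 4.0.16 (TMM, quasi-likelihood F test, Benjamini-Hochberg adjustment, threshold 0.05) in R 4.3.3. The script was tested on simulated data, where it called 15 of 100 genes changed 1.2-fold and 64 of 100 changed 1.4-fold. It called 2 of 16405 unchanged genes. Whether these rates hold in the libraries of the rats, where many factors varied along a shared axis, was not tested. A factor that was not called may still differ by a small amount. Paralog ratios, log2((reads + 0.5)/(reads + 0.5)), were compared by exact permutation with numpy 2.4.6. Alternatives were DESeq2 1.42.0, median-ratio and total count scaling, 2 other filters, the replicate block, 1 surrogate variable (sva 3.50.0), equal depth, span offsets (50 bins smoothed over 5, with spans from GRCr8 for 89.9% of genes and 64 factors) and each rat left out.

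The members and lists were chosen with earlier results of these data known. Named were every called factor, a set of 25 core factors whatever their result, those nearest the read filter, and up to 5 called partners in each direction by p. Further names, such as the members of each class or those called under an alternative, were chosen after their values were seen. The fit without 4 libraries, the depth covariate, the motifs and the printed promoter stretch were chosen after seeing the data. The 4 libraries were those that stood highest in striatal markers. Depth was 11098076 to 25552681 reads on genes per rat. The differences between rats set the precision, together with the number of reads for factors near the filter, such as Eif4e1b.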

Additional observations from a re-analysis of the deposited data

Results flagged for a closer look

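In 5 of 104 groups of 10 rats examined, the extreme rat stood off from the nearest other by more than 0.466 of the range of its group, Dixon's 95% critical value for 10 samples. Chance alone gives about 1 in 20. For Eef1g, Saline 9 had a normalised RPM of 213.4, where the other controls lay between 157.2 and 185.9. For Eif3f, LSD 1 had 211, where the other LSD-treated rats lay between 180.4 and 195.1. For Eif4g3, LSD 10 had 183.3, below the others at 229 to 277. For Ppp1r15b, LSD 1 had 32.6, below the others at 42.5 to 49.6. The log2 ratio of Eif4g3 to Eif4g1 was 2.99 in LSD 4 and 2.25 to 2.54 in the other LSD-treated rats.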

How the results depend on the processing

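Of the 64 factors, 1 was called higher and 15 lower, beside 1076 and 1418 of all 16605 genes. The higher count of the factors was 3 with DESeq2, 3 with total count scaling and 3 with filterByExpr (Eif4b and Eif4enif1 beside Eif3a in each). It was 2 with 1 surrogate variable (Eif4g3 beside Eif3a), where Eef2, Eef1a2 and Eif4h lost their calls. It was 8 without the 4 libraries richest in striatal markers. With each rat left out in turn it was 1 to 8 (8 without Saline 2, and 2 without LSD 6 or Saline 6). Across all genes, 1358 were higher with DESeq2, 1501 with total count scaling and 1213 of 15320 with filterByExpr. With 1 surrogate variable 1346 were higher, without the 4 libraries 1691, and with each rat left out 659 to 1681. The lower count of the factors was 7 with total count scaling, 7 without a filter on low counts, 7 with span offsets, 7 with span offsets and the replicate block, and 7 with depth as a covariate. It was 8 to 17 when each rat was left out, with 8 without LSD 4 or Saline 5 and 9 without LSD 2 or Saline 4. Across all genes, 858 were lower with total count scaling, 836 of 25199 without a filter and 1128 with span offsets. With span offsets and the block 1334 were lower, with depth 639, and with each rat left out 907 to 1867. The replicate block alone gave 1 higher and 14 lower, with Eif3k the lost call, beside 1355 and 1606 of all genes. It also left 0 of the 9 paralog ratios past the threshold. The numbers were not taken to pair the rats in the main fit. With group means removed, 6 of 10 pairs correlated above 0.1, and 1 of 10 rats correlated best with its own number. The mean r was 0.14 between rats of the same number and -0.015 between rats of other numbers. Whether the numbers mark a real pairing was not tested. The median difference of the factors was 0.0092, and -0.11 with depth as a covariate, beside 0.0022 and -0.012 across all genes. No called factor changed direction in any of the 32 alternatives. Eif3f, Eif3i and Eif5a were called in all of them, and 9 factors in all 20 fits that left out a rat. Lowly expressed factors such as Eif3h, with 15 to 96 reads per rat, had the widest errors.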
